A study of Mus musculus with 18 samples.

Results

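The 8 genes described here encode the 4 Id proteins (Id1, Id2, Id3 and Id4), the secreted BMP antagonist noggin (Nog), the inhibitory Smad7 and the BMP receptors Bmpr1a and Bmpr2. They were chosen by symbol from a table of 13973 genes, and all 8 were measured in all 18 libraries. The choice was made after earlier results on these libraries were known, among them levels with and without drug. Their differences between drug and vehicle, and between fractions, are therefore given as descriptions with no test, and only comparisons between genotypes were tested for them. Acute slices of hippocampus, with or without adjoining cortex, came from wild-type (WT) or Fmr1 knockout (KO) male C57BL/6N mice at 28 to 35 days after birth. The KO is constitutive, so every cell of the slice lacks intact Fmr1, the gene of the RNA-binding protein FMRP. For 30 min the slices received either the solvent DMSO (vehicle) or homoharringtonine (HHT) at 20 µM, a drug that blocks ribosomes just after initiation while ribosomes further along the mRNA finish and leave. RNA was sequenced from the cleared lysate (input) and from sucrose gradient pools of medium and of heavy polysomes. With HHT there were 2 replicates per genotype and fraction, and with vehicle 1 library per genotype and fraction, each from 10 slices of 2 or 3 mice.

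Bone morphogenetic proteins (BMPs) are secreted ligands that bring together type I receptors such as Bmpr1a and type II receptors such as Bmpr2, which are serine/threonine kinases spanning the membrane. The active receptors phosphorylate Smad1, Smad5 and Smad9, which enter the nucleus with Smad4 and switch on targets, among which the Id genes and the feedback inhibitors Smad6 and Smad7 are the classic ones. Noggin binds BMPs outside the cell and keeps them from their receptors. Id proteins have a helix-loop-helix domain but no DNA-binding region. They hold E proteins (Tcf3, Tcf4 and Tcf12) in pairs that cannot bind DNA. In the hippocampus, BMP signalling and noggin are known for their part in keeping and releasing neural stem cells, and Id genes are active in stem cells, astrocytes and blood vessels.

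Totals ran from 6226237 to 13834652 estimated counts per library, and the members' counts from 22.4 to 2779. Levels are given as CPM, the usual depth-scaled count, after TMM correction for library composition. Each library was made from the same mass of RNA, so a level is a share of its own fraction's RNA, and fewer cells of a type cannot be told apart from less RNA per cell. A level that differs between HHT and vehicle is likewise a difference in share, and the amount of an mRNA in a polysome pool was not measured. The words rose and fell below refer to such shares. Fmr1 stood at 4.62 to 8.53 CPM in the KO libraries and at 13.9 to 32.2 in the WT libraries, with no overlap. All 10 listed markers of excitatory neurons of hippocampus and cortex were measured, with summed levels of 7580 to 12300 CPM. The replicates come from separate pools of slices, and p-values measure the spread between such pools. Within HHT, replicates 1 and 2 were apart from each other in the same direction in both genotypes for 49.6% of all genes and 7 of the 8 in input. In medium this held for 40.1% and 3 of the 8, and in heavy for 35.1% and 2 of the 8. In input Id1, Id2, Id3, Id4 and Smad7 were higher in replicate 2, and Nog and Bmpr2 in replicate 1. The labels assign no library to a batch, though the name of the deposited data holds the word batch. The labels also give the vehicle libraries no replicate number. Whether HHT replicates and vehicle were processed together was therefore not tested, and input differences that moved are also given with each HHT replicate alone.

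The coding sequences differ in a way that later values return to, so the starts of 7 of the 8 are shown. Each runs from 12 bases before the start codon through 25 codons (GENCODE M21 on GRCm38, the assembly of mm10), and the capitals mark the start codon, near which HHT holds ribosomes. The 4 Id reading frames open with the same 5 bases, those of Id3 and Id4 with the same 9, and over the 75 coding bases shown any pair of Id genes is identical at 30.7% to 46.7% of positions.
Id1: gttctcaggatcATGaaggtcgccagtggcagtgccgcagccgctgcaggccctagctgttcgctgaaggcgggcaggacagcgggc
Id2: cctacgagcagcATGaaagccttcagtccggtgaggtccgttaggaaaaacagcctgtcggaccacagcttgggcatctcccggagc
Id3: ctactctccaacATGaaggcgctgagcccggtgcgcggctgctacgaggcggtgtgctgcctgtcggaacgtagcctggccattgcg
Id4: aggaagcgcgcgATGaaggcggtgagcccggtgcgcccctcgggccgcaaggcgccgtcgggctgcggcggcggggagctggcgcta
Nog: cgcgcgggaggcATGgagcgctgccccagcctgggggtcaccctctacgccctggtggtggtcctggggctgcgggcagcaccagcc
Bmpr1a: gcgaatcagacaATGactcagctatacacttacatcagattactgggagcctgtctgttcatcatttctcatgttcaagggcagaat
Bmpr2: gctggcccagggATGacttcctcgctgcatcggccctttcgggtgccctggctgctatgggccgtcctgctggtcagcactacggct

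The Id genes have short reading frames, with 148 codons in Id1, 134 in Id2, 119 in Id3 and 161 in Id4, against a median of 474 codons over the 13050 genes with a matched coding sequence. Nog has 232 codons, Smad7 has 426, Bmpr1a has 532 and Bmpr2 has 1038. A stretch of 19 residues with a mean hydropathy of at least 1.6, as in a signal peptide or membrane span, was found in Nog, Bmpr1a and Bmpr2 but not in the Id genes or Smad7. Such a stretch was present in 36% of all matched genes. The windows of Nog, Bmpr1a and Bmpr2 each hold 9 codons with T as the middle base among codons 2 to 25, those of Id1, Id2, Id3 and Id4 hold 2, 6, 6 and 4, and the medians were 7 in genes with a hydrophobic stretch and 6 in genes without one. On mm10 the genes lie as follows: Id1 (chromosome 2, 152736251 to 152737410, plus strand), Id2 (chromosome 12, 25093799 to 25097140, minus strand), Id3 (chromosome 4, 136143497 to 136145755, plus strand), Id4 (chromosome 13, 48261228 to 48266026, plus strand), Nog (chromosome 11, 89300638 to 89302332, minus strand), Smad7 (chromosome 18, 75367529 to 75395935, plus strand), Bmpr1a (chromosome 14, 34410734 to 34503341, minus strand) and Bmpr2 (chromosome 1, 59763400 to 59879014, plus strand). Annotated genes overlap Id4 (A330033J07Rik and Gm49291, opposite strand), Bmpr1a (Gm17110, opposite strand) and Bmpr2 (Gm38125, same strand), and the treatment of shared reads in the authors' counting is not stated in the labels.

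In vehicle slices the levels of the Id mRNAs, as shares of a fraction's RNA, were higher in medium than in input or heavy. With HHT 3 of the 4 were at lower levels in medium while their input levels were much the same. Id3 in medium stood at 33.1 CPM in the WT and 28.1 in the KO vehicle library, 8.69 and 7.67 in the WT HHT libraries and 8.57 and 8.71 in the KO HHT libraries. The 4 HHT libraries lay close together, from 7.67 to 8.71 CPM, and far below the vehicle libraries. The difference of HHT from vehicle was -1.86 ± 0.19 (log2 fold change ± SE, edgeR, both genotypes weighed equally), or 3.63-fold lower. In input, Id3 stood at 19.02 (WT) and 18.1 (KO) CPM with vehicle, against 19.2 and 21.4 (WT) and 14.9 and 25.0 (KO) with HHT, and these libraries overlapped.

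Id2, the most abundant Id mRNA, showed the same order in medium, with 258 CPM in the WT and 198 in the KO vehicle library, 90.4 and 97.2 in the WT HHT libraries and 84.5 and 99.7 in the KO HHT libraries. Every HHT library was below both vehicle libraries, a difference of -1.28 ± 0.17 (2.43-fold lower). In input Id2 stood at 139.9 (WT) and 142 (KO) CPM with vehicle, against 117 and 178 (WT) and 115 and 157 (KO) with HHT, with a difference of 0.00 ± 0.17. The HHT input libraries split by replicate number: replicate 1 lay at 117 (WT) and 115 (KO) CPM and replicate 2 at 178 and 157, so the input difference was -0.28 with replicate 1 alone and 0.22 with replicate 2 alone.

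Id1 had the lowest counts of the Id genes. In medium it stood at 18.2 CPM in the WT and 15.1 in the KO vehicle library, 7.24 and 6.44 in the WT HHT libraries and 7.09 and 9.71 in the KO HHT libraries. The HHT libraries were again all below the vehicle libraries, by -1.13 ± 0.19 on the log2 scale (2.19-fold). In input Id1 stood at 10.3 (WT) and 6.43 (KO) CPM with vehicle, against 7.26 and 8.17 (WT) and 7.32 and 9.17 (KO) with HHT, a difference of -0.03 ± 0.20.

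Id4 differed from the other Id genes, since its medium level overlapped between treatments: 38.8 (WT) and 29.6 (KO) CPM with vehicle, against 29.1 and 30.0 (WT) and 27.2 and 34.0 (KO) with HHT. The difference was -0.17 ± 0.15 in medium and -0.31 ± 0.16 in input, where the HHT libraries (14.6 to 17.2 CPM) lay just below the vehicle libraries (17.8 and 20.9 CPM). Id4 likewise has a short reading frame and no hydrophobic stretch, but its medium level did not separate the treatments over both genotypes. The medium difference was -0.41 ± 0.20 in WT alone and 0.05 ± 0.24 in KO alone, each against 1 vehicle library.

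**Figure D1:**
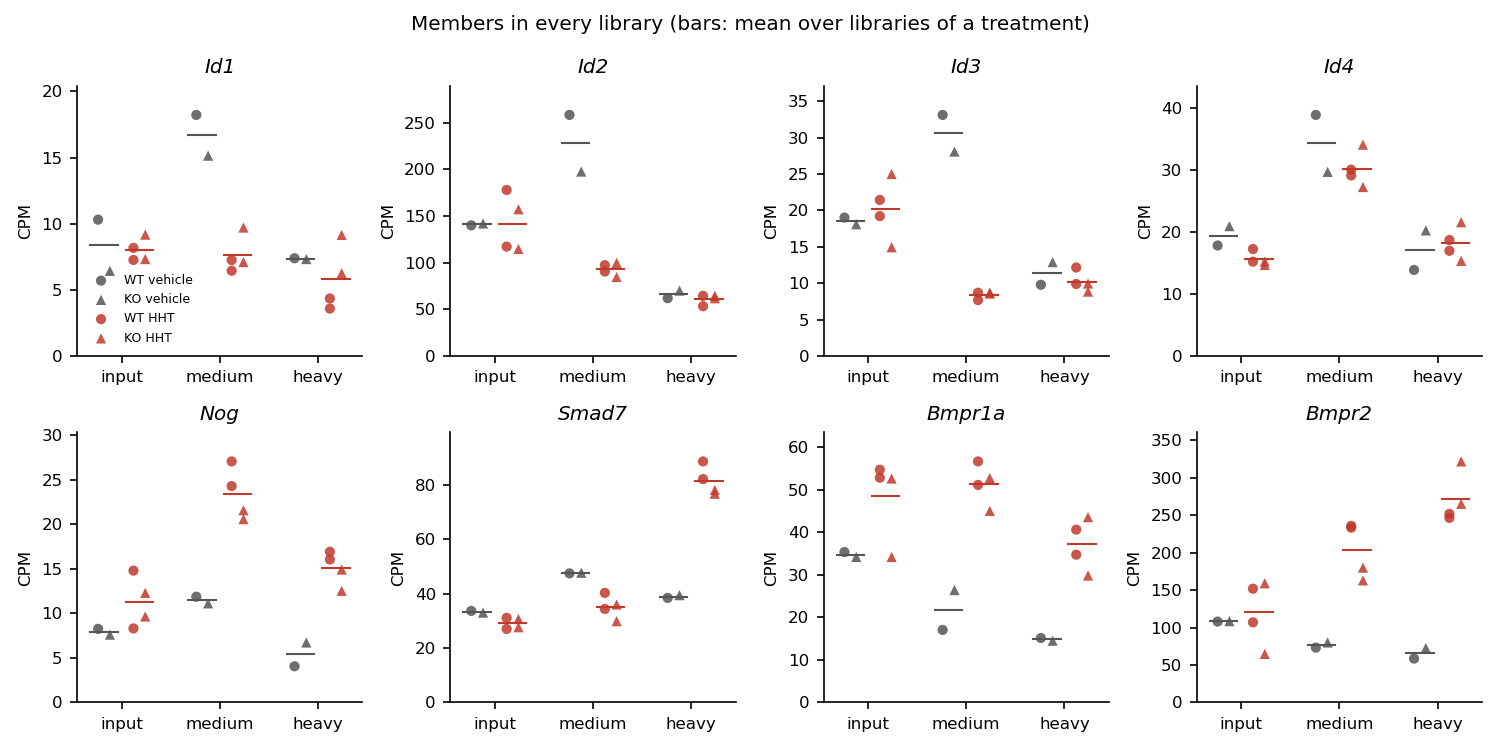
Level of each gene (CPM, linear axis from 0) in every library by fraction. Circles are WT and triangles KO, grey is vehicle and red HHT, and bars are means over the libraries of a treatment. In medium the red points of Id1, Id2 and Id3 all lie below the grey ones, those of Nog, Bmpr1a and Bmpr2 all above, and Smad7 is below in medium and above in heavy.

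Heavy polysomes held the Id mRNAs at levels that overlapped between treatments. Id2 in heavy stood at 61.8 (WT) and 70.0 (KO) CPM with vehicle, against 64.4 and 53.3 (WT) and 64.5 and 61.8 (KO) with HHT. Id3 stood at 9.78 (WT) and 12.9 (KO) CPM with vehicle, against 9.89 and 12.2 (WT) and 9.96 and 8.84 (KO) with HHT. Id4 stood at 13.8 (WT) and 20.2 (KO) CPM with vehicle, against 16.9 and 18.7 (WT) and 21.5 and 15.3 (KO) with HHT. The differences were -0.11 ± 0.18 for Id2, -0.14 ± 0.22 for Id3, 0.11 ± 0.17 for Id4 and -0.42 ± 0.24 for Id1. Id1 in heavy stood at 7.38 (WT) and 7.32 (KO) CPM with vehicle, against 4.34 and 3.58 (WT) and 6.25 and 9.15 (KO) with HHT.

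The ratios between fractions describe the same pattern within each treatment. With vehicle, the medium to input ratio was above 0 on the log2 scale for all 4 Id genes (1.03 ± 0.23 for Id1, 0.68 ± 0.20 for Id2, 0.72 ± 0.22 for Id3 and 0.81 ± 0.18 for Id4), and the heavy to medium ratio was below 0 (-1.17, -1.78, -1.44 and -1.02 in the same order). Genes with under 600 coding bases and no hydrophobic stretch, 1143 in number, had a median heavy to medium ratio of -1.13 with vehicle, a lower quartile of -1.40 and a 10th percentile of -1.61. Id1 and Id4 lay near that median, Id3 was just below the quartile and Id2 below the 10th percentile. With HHT the medium to input ratio was -1.26 ± 0.16 for Id3, -0.60 ± 0.14 for Id2 and -0.07 ± 0.17 for Id1, but remained at 0.96 ± 0.13 for Id4. The change in that ratio with HHT was -1.98 ± 0.27 for Id3, -1.29 ± 0.24 for Id2, -1.10 ± 0.28 for Id1 and 0.14 ± 0.22 for Id4. For Id4 this change was -0.27 ± 0.29 in WT alone and 0.53 ± 0.34 in KO alone.

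Smad7, which blocks receptor Smads and is itself a BMP target, had opposite differences in the 2 polysome fractions. In heavy it stood at 38.4 CPM in the WT and 39.4 in the KO vehicle library, 88.5 and 82.0 in the WT HHT libraries and 78.0 and 76.7 in the KO HHT libraries. All 4 HHT libraries were far above both vehicle libraries, by 1.06 ± 0.14 on the log2 scale (2.09-fold). In medium it stood at 47.4 (WT) and 47.6 (KO) CPM with vehicle, against 40.2 and 34.3 (WT) and 35.97 and 29.8 (KO) with HHT, all HHT libraries lower, by -0.44 ± 0.13. In input it stood at 33.6 (WT) and 33.0 (KO) CPM with vehicle, against 27.0 and 31.1 (WT) and 27.6 and 30.6 (KO) with HHT, with HHT again lower in each library but by only -0.20 ± 0.13. The heavy to medium ratio of Smad7 was -0.29 ± 0.15 with vehicle and 1.21 ± 0.11 with HHT, a shift of 1.50 ± 0.19. Id3 had the only larger shift of that ratio among the 8 genes, 1.72 ± 0.30, and its heavy level overlapped between treatments while its medium level did not. That order held in WT alone (2.20 ± 0.35 for Id3, 1.50 ± 0.28 for Smad7) but not in KO alone (1.24 ± 0.44 and 1.51 ± 0.27).

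Nog, whose protein is secreted, was higher with HHT in both polysome fractions. In medium it stood at 11.9 CPM in the WT and 11.1 in the KO vehicle library, 24.3 and 27.1 in the WT HHT libraries and 20.6 and 21.6 in the KO HHT libraries. In heavy it stood at 4.06 (WT) and 6.74 (KO) CPM with vehicle, against 16.9 and 16.1 (WT) and 14.9 and 12.5 (KO) with HHT. The HHT libraries were above the vehicle libraries in both, by 1.02 ± 0.21 in medium (2.02-fold) and 1.52 ± 0.26 in heavy (2.87-fold). In input it stood at 8.27 (WT) and 7.61 (KO) CPM with vehicle, against 14.8 and 8.31 (WT) and 12.3 and 9.66 (KO) with HHT, a difference of 0.53 ± 0.22 that was 0.78 with HHT replicate 1 alone and 0.17 with HHT replicate 2 alone.

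Bmpr2, the type II receptor, had the widest difference of the 8 genes. In heavy it stood at 58.5 CPM in the WT and 72.7 in the KO vehicle library, 246 and 252 in the WT HHT libraries and 322 and 265 in the KO HHT libraries. The lowest HHT library (246 CPM) was far above the highest vehicle library (72.7 CPM), and the difference was 2.05 ± 0.29 (4.14-fold higher). In medium Bmpr2 stood at 73.1 (WT) and 80.0 (KO) CPM with vehicle, against 236 and 233 (WT) and 179.9 and 163 (KO) with HHT, a difference of 1.39 ± 0.27. In input the libraries overlapped, at 108 (WT) and 108 (KO) CPM with vehicle, against 152 and 107 (WT) and 159 and 64.8 (KO) with HHT, and the difference of 0.15 ± 0.26 depended on which libraries were used: it was 0.52 with HHT replicate 1 alone, -0.37 with HHT replicate 2 alone and -0.27 without KO HHT replicate 1.

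The type I receptor Bmpr1a followed Bmpr2 in medium, where it stood at 17.0 CPM in the WT and 26.4 in the KO vehicle library, 51.1 and 56.6 in the WT HHT libraries and 52.7 and 45.0 in the KO HHT libraries. In heavy it stood at 15.1 (WT) and 14.5 (KO) CPM with vehicle, against 40.6 and 34.7 (WT) and 43.5 and 29.8 (KO) with HHT. No HHT library overlapped the vehicle libraries in either fraction, and the differences were 1.27 ± 0.20 (2.42-fold) and 1.32 ± 0.22 (2.5-fold). In input Bmpr1a stood at 35.3 (WT) and 34.2 (KO) CPM with vehicle, against 54.7 and 52.8 (WT) and 52.6 and 34.2 (KO) with HHT. The input difference was 0.47 ± 0.19, 0.63 with HHT replicate 1 alone and 0.28 with HHT replicate 2 alone. With vehicle both receptor mRNAs were lower in polysomes than in input (medium to input -0.71 ± 0.23 for Bmpr1a and -0.50 ± 0.30 for Bmpr2), whereas with HHT that ratio was 0.09 ± 0.15 and 0.74 ± 0.21.

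In all, HHT and vehicle libraries did not overlap for 7 of the 8 genes in medium (Id1, Id2, Id3 and Smad7 lower, Nog, Bmpr1a and Bmpr2 higher), for 4 in heavy (Nog, Smad7, Bmpr1a and Bmpr2, all higher) and for 3 in input (Nog higher, Id4 and Smad7 lower). Of all genes, edgeR with Benjamini-Hochberg adjustment at 0.05 called 25.4% higher and 21.5% lower in medium, 27.1% higher and 24.7% lower in heavy, and 12.2% higher and 0.215% lower in input. By the measure used for the members, libraries did not overlap for 65.5% of all genes in medium (33.9% higher, 31.5% lower), 68.2% in heavy (35.2% higher, 32.9% lower) and 29.7% in input (18.4% higher, 11.3% lower). A difference between HHT and vehicle in polysomes is thus common in this table, and the members' counts are not read as particular to them. The balance of calls over all genes also turned with the scaling: 54.1% of the calls in medium were higher but 44.5% with library totals, 52.3% in heavy but 44.0% with RLE factors, and 98.3% in input but 85.8% with library totals. The differences of the 7 members named above in medium and of the 4 in heavy kept their direction with library totals and with RLE factors.

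**Figure D2:**
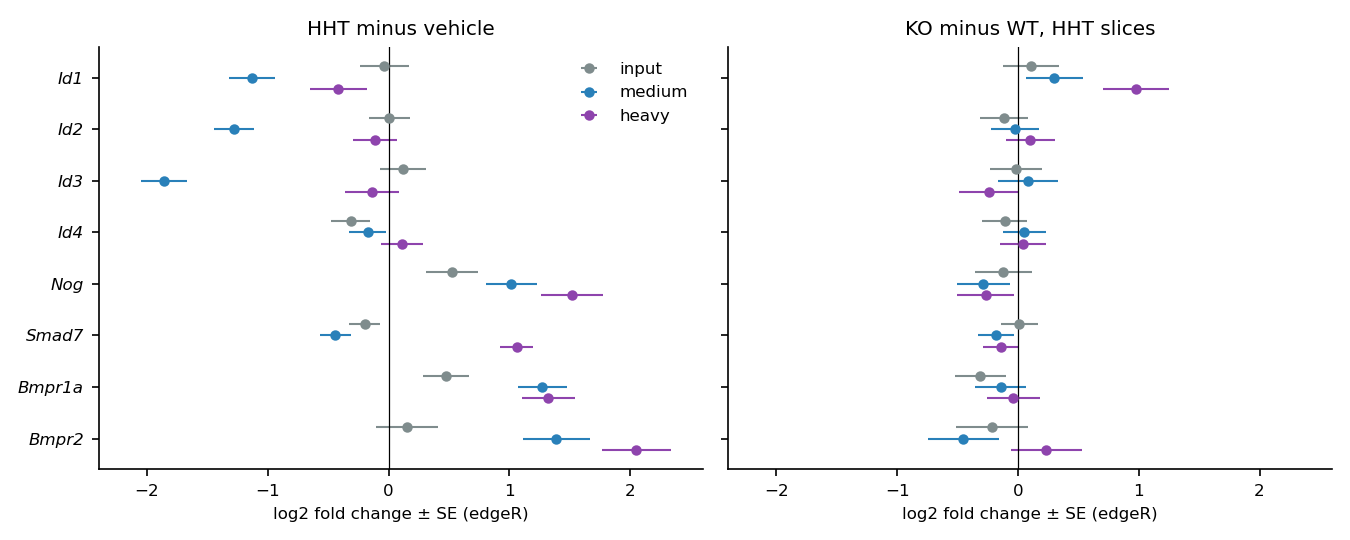
Log2 fold change ± SE of each gene in input, medium and heavy (edgeR), for HHT minus vehicle on the left (4 against 2 libraries) and KO minus WT in HHT slices on the right (2 against 2). On the left Id3 in medium is lowest at -1.86 and Bmpr2 in heavy highest at 2.05, and on the right only Id1 in heavy, at 0.98, is far from 0.

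Set beside genes of like length and kind, the members spread as follows. Genes with under 600 coding bases and no hydrophobic stretch, the class of the Id genes, had a median HHT difference in medium of -0.59, and a 10th percentile of -1.26. Id3 and Id2 were below that percentile, Id1 was close to it, and Id4 was above the class's upper quartile of -0.24. In heavy the class median was 0.09, and Id2, Id3 and Id4 lay between the quartiles of -0.14 and 0.34 while Id1 was below the 10th percentile of -0.37. Bmpr1a and Bmpr2 belong to the 2451 genes with a hydrophobic stretch and over 1500 coding bases, whose median was 0.64 in medium and 0.62 in heavy. Both receptors lay above the upper quartile of 1.13 in medium, and in heavy Bmpr2 exceeded the 90th percentile of 1.82. Nog, among 1837 genes with such a stretch and 600 to 1500 coding bases, lay above the upper quartiles of 0.89 in medium and 1.23 in heavy. Smad7 lay near its class median in medium (-0.34, 3568 genes without a stretch) and above the 90th percentile of 0.53 in heavy. In input Nog (0.53) lay near its class median of 0.46. Bmpr1a (0.47) and Bmpr2 (0.15) lay between the quartiles of their class there (-0.04 and 0.84, median 0.35).

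**Figure D3:**
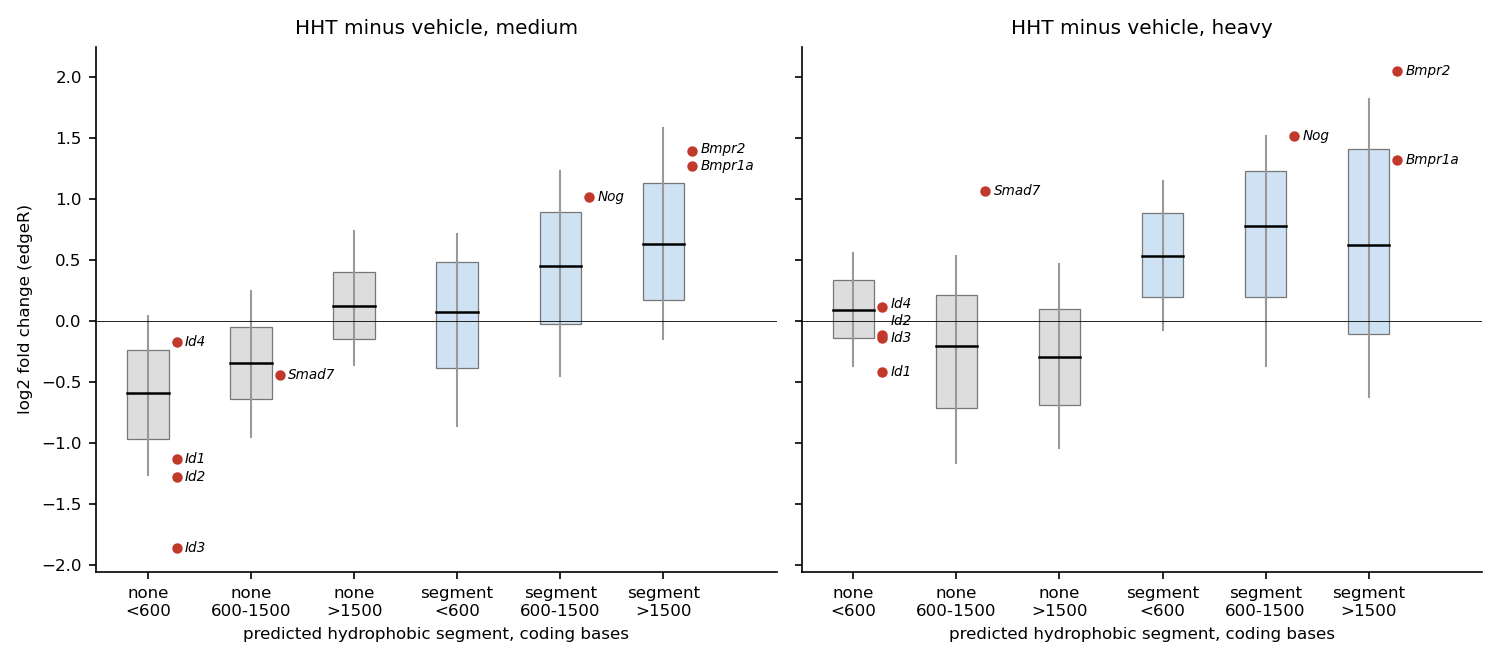
HHT minus vehicle (log2 fold change, edgeR) in medium and heavy for genes grouped by predicted hydrophobic stretch and coding length. Boxes span the quartiles, thick lines are medians and thin lines run from the 10th to the 90th percentile, with the 8 genes as red points beside their class. Id1, Id2 and Id3 sit low in the shortest class in medium, and Smad7 sits well above its class in heavy.

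Levels of different genes can be compared only per length, for which the second deposited table (rescaled TPM) was used. In vehicle input Id2 was highest at 340 to 341, followed by Id3 at 57.8 to 61.9, Id4 at 33.2 to 38.3, Bmpr2 at 29.8 to 30.2, Id1 at 20.9 to 34.0, Smad7 at 22.7 to 23.5, Bmpr1a at up to 20.0 and Nog at 12.0 to 13.4, each over 1 WT and 1 KO library. Id1 overlapped Id4, Bmpr2 and Smad7, and the other neighbours did not overlap. In heavy with HHT the order was Id2 (126 to 154), Bmpr2 (66.8 to 88.2), Smad7 (51.0 to 59.9), Id4 (27.2 to 39.5), Id3 (27.3 to 38.5), Nog (19.3 to 26.5), Bmpr1a (16.1 to 24.2) and Id1 (11.6 to 29.1) over 4 libraries. There Bmpr2 and Smad7 stood above every Id gene but Id2, while Id1 overlapped Id4, Id3, Nog and Bmpr1a, Id4 overlapped Id3, and Nog overlapped Bmpr1a.

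Markers of other cell types moved between treatments as well. The 10 endothelial markers summed to 24.7 to 27.5 CPM in medium with vehicle and 46.6 to 60.5 with HHT, and 7 of them were called higher and 0 lower. In input the sum was 27.3 to 29.9 against 62.6 to 74.8 (6 called higher), and in heavy 23.9 to 26.9 against 31.7 to 47.0 (2 called higher). The 10 astrocyte markers summed to 1440 to 1830 CPM in medium with vehicle and 3100 to 3490 with HHT (6 called higher, 2 lower). Id1 and Id3, known from blood vessels, and Id2 were lower in medium where these sums were higher, while Nog and the receptors were higher there too. Summed neuron markers went the other way in heavy. The 10 of excitatory neurons summed to 11700 to 12300 CPM with vehicle and 8820 to 9570 with HHT (2 called higher, 4 lower). The 7 of inhibitory neurons summed to 1170 to 1190 against 865 to 963. Yet 4 of these 7 were called higher and 2 lower, with a median difference of 0.82, so the sum does not stand for most of them. In medium the excitatory sums overlapped (8650 to 9090 against 8470 to 9820), with 6 markers called higher and 3 lower. The inhibitory sums were higher there with HHT (632 to 679 against 974 to 1160), with 5 called higher and 1 lower. The 8 microglia markers summed to 75.4 to 108 CPM in input with vehicle and 161 to 191 with HHT. The part of cell type in the members' values was not tested.

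The other genes of the pathway were listed by role, and 58 of 65 were measured besides the 8. The list was made with earlier results known, so its counts, and the adjusted p-values of the genes named from it (each over all 13973 genes), are not independent evidence of a direction. In input 13 were called higher and 0 lower (edgeR, Benjamini-Hochberg adjusted), in medium 24 higher and 7 lower, and in heavy 24 higher and 3 lower, against the background shares given above. Their median differences were 0.29, 0.42 and 0.39, where those of all genes were -0.00, 0.03 and 0.06. The count in input was least stable: it was 6 when WT HHT replicate 1 was left out, 7 when KO HHT replicate 1 was, 22 with HHT replicate 1 alone, 4 with HHT replicate 2 alone and 0 in KO alone. The lower count in medium was 3 when WT HHT replicate 1 was left out, 4 when WT HHT replicate 2 was, 3 when KO HHT replicate 1 was and 3 with HHT replicate 2 alone.

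Genes of the extracellular and membrane parts of the pathway were on the higher side. That side was shared by genes with a hydrophobic stretch at large. Those with 600 to 1500 coding bases had median HHT differences of 0.46 in input, 0.45 in medium and 0.78 in heavy. Those with over 1500 had 0.35, 0.64 and 0.62. The counts below are therefore not read as particular to the pathway. Of 10 measured ligands, 5 rose in medium and 6 in heavy, and 0 fell. Among them Gdf10, a BMP3-like ligand, held 13.5 to 14.8 CPM in medium with HHT and 3.83 to 6.60 with vehicle (1.50 ± 0.22, adjusted p = 0.000217). Bmp3 rose by 1.79 ± 0.39 in medium (adjusted p = 0.00212), a call not reached in KO alone (adjusted p = 0.0624). Gdf1 rose in input by 1.05 ± 0.20 (adjusted p = 0.00367) and in heavy by 1.42 ± 0.20 (adjusted p = 6.53e-05). Its input call was not reached in KO alone (adjusted p = 0.0596), with HHT replicate 2 alone (adjusted p = 0.0658) or by limma with a pseudocount of 0.1 (adjusted p = 0.0507).

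Besides Nog, 11 of 16 measured antagonists and extracellular modulators rose in medium and 9 in heavy, and 0 fell. Crim1, a membrane-anchored BMP-binding protein, held 119 to 160 CPM in medium with HHT against 36.4 to 40.1 with vehicle (1.81 ± 0.29, adjusted p = 0.000322) and rose by 2.02 ± 0.30 in heavy (adjusted p = 7.71e-05). Twsg1, a secreted modulator of chordin, rose by 1.08 ± 0.17 in medium (adjusted p = 0.000255), and Nbl1, a secreted antagonist, by 1.21 ± 0.20 (adjusted p = 0.00042).

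Of the 11 measured receptors and coreceptors other than Bmpr1a and Bmpr2, 6 rose in medium and 6 in heavy. Acvr1, a type I receptor, held 70.9 to 79.7 CPM in medium with HHT against 14.4 to 26.1 with vehicle (1.96 ± 0.25, adjusted p = 0.000131). Acvr2a, a type II receptor, rose by 1.75 ± 0.30 (adjusted p = 0.0005), and Neo1, a receptor for RGM coreceptors, by 2.08 ± 0.32 in medium and 2.23 ± 0.32 in heavy (adjusted p = 0.000261 and 6.34e-05). Bmpr1b, the other BMP type I receptor, rose by 0.91 ± 0.18 in medium (adjusted p = 0.00105), a call not reached in KO alone (adjusted p = 0.0963). The coreceptors Rgma and Rgmb rose by 1.36 ± 0.14 (adjusted p = 9.31e-06) and 1.22 ± 0.17 (adjusted p = 4.87e-05) in heavy. The exception was Fkbp1a, a cytosolic protein that binds type I receptors, which fell by 0.87 ± 0.15 in medium (553 to 641 against 980 to 1220 CPM, adjusted p = 0.000452).

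The cytoplasmic and nuclear parts did not share that direction. Of the 17 Smads and regulators other than Smad7, 2 rose and 2 fell in medium, and 3 rose and 2 fell in heavy. The other 7 Smads ranged from -0.24 ± 0.12 (Smad4) to 0.15 ± 0.11 (Smad2) in medium, none past the threshold. In heavy 0 of them were called higher. There Smad1 fell by 0.48 ± 0.12 (adjusted p = 0.00385) and Smad2 by 0.35 ± 0.11 (adjusted p = 0.019). By limma with a pseudocount of 1 neither was called (adjusted p = 0.135 and 0.447), and Smad2 was also not called without WT HHT replicate 1, KO HHT replicate 1 or KO HHT replicate 2 (adjusted p = 0.0688, 0.0589 and 0.0635). Ski, a nuclear corepressor of Smads, fell by 0.49 ± 0.10 in medium (adjusted p = 0.00106), and Zeb2, a Smad-binding repressor, rose by 0.69 ± 0.18 (adjusted p = 0.00609), though not in KO alone (adjusted p = 0.2).

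Of the 7 measured BMP targets that are not members, 4 fell in medium and 0 rose. They were the transcription factors Atoh8 (-0.64 ± 0.19, adjusted p = 0.0136), Hey2 (-0.64 ± 0.23, adjusted p = 0.0347), Msx1 (-0.66 ± 0.25, adjusted p = 0.0406) and Hey1 (-0.31 ± 0.12, adjusted p = 0.0457), the last 2 named after their values were seen. None was called by DESeq2 (adjusted p = 0.0895, 0.102, 0.185 and 0.0529). Atoh8, Hey2 and Msx1 were scarce, at 2.07 to 6.73 CPM in the medium libraries. Calls were also lost without WT HHT replicate 1 (Atoh8, Msx1 and Hey1), WT HHT replicate 2 (Msx1 and Hey1), KO HHT replicate 1 (Hey2, Msx1 and Hey1) or KO HHT replicate 2 (Hey2), and all 4 with HHT replicate 2 alone. Hey1 was the target that fell in heavy, by 0.57 ± 0.12 (adjusted p = 0.00129). Of all genes, 21.5% were called lower in medium and 24.7% in heavy. Genes without a hydrophobic stretch had median differences in medium of -0.59 (under 600 coding bases), -0.34 (600 to 1500) and 0.12 (over 1500). The target counts are therefore not read as particular to the pathway.

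The E proteins that Id proteins bind showed smaller differences in medium than Id1, Id2 and Id3. Tcf3 held 15.1 to 16.9 CPM in medium with HHT against 24.7 to 26.0 with vehicle, and fell by 0.66 ± 0.16 (adjusted p = 0.00438, but 0.0662 in WT alone). Tcf4 stood at 0.38 ± 0.15 (adjusted p = 0.0546) and Tcf12 at -0.05 ± 0.12 (adjusted p = 0.787). In heavy all 3 were between -0.15 and 0.22 with none called. Of 41 measured other factors with a helix-loop-helix domain, 5 rose and 14 fell in medium, and 7 rose and 14 fell in heavy. Hes6 fell in medium by 1.18 ± 0.19 (adjusted p = 0.000311), a size like that of Id2. Hif1a, the oxygen-regulated factor, rose in medium by 0.96 ± 0.15 (adjusted p = 0.000279) and fell in heavy by 1.14 ± 0.14 (adjusted p = 2.13e-05), the reverse of the Smad7 values. Bhlhe40 and Hes1 fell in heavy by 1.17 ± 0.10 and 1.06 ± 0.15 (adjusted p = 3.94e-06 and 5.85e-05). Of 13 genes of the neighbouring TGF-beta branch, 10 rose in medium and 12 in heavy, and 0 fell. Beside these counts, 25.4% of all genes were called higher and 21.5% lower in medium, and 27.1% and 24.7% in heavy.

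**Figure D4:**
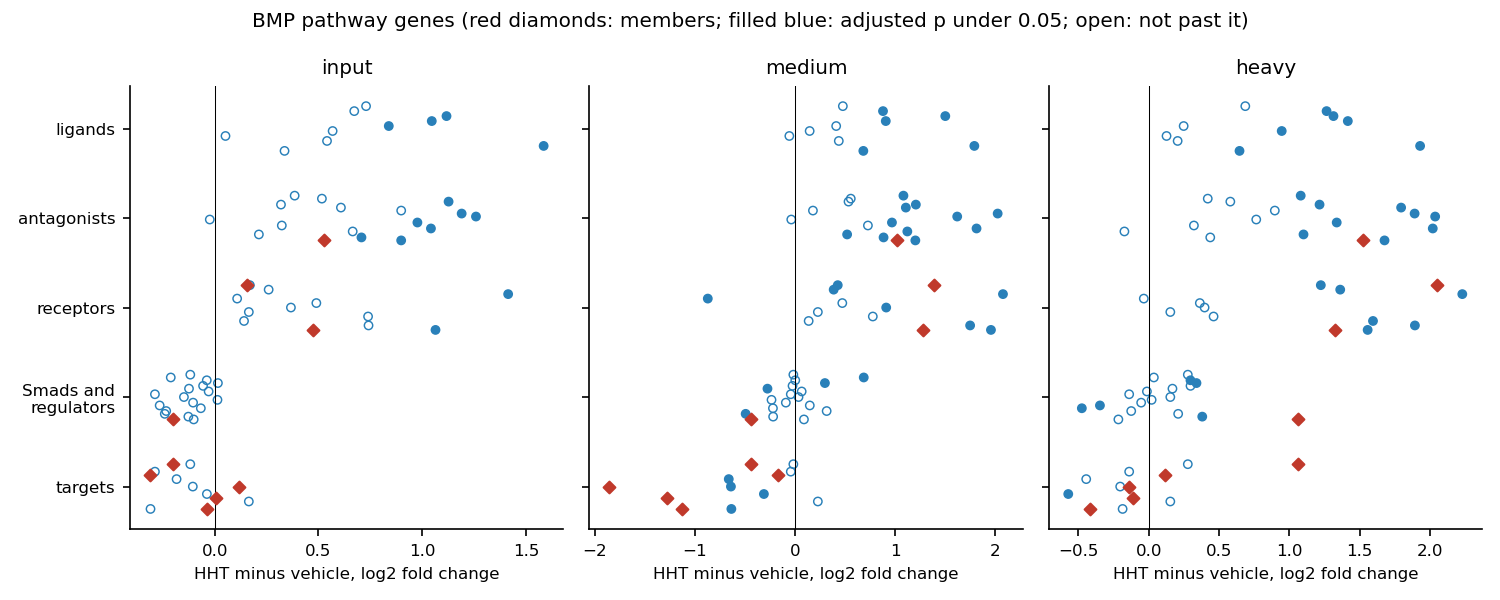
HHT minus vehicle (log2 fold change, edgeR) for measured BMP pathway genes by role in input, medium and heavy. Red diamonds are the 8 genes described here, filled blue circles other genes past an adjusted p of 0.05 and open circles the rest, and a gene on 2 lists is drawn on both. Ligands, antagonists and receptors lie mostly right of 0, while Smads and targets lie around or left of it, except Smad7 in heavy.

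The comparison of genotypes asks whether any of these levels depended on FMRP. Under HHT, 0 of the 8 genes were called between KO and WT in input, medium or heavy (edgeR, Benjamini-Hochberg adjustment, 2 against 2 libraries), as were 0% of all genes in each fraction. Fmr1 itself was thus not called, though in HHT input it stood at 8.53 and 5.07 CPM in KO and at 22.4 and 32.2 in WT. A count of 0 here therefore does not show that a level is independent of FMRP. At an unadjusted p under 0.05, 679 genes passed in input, 387 in medium and 412 in heavy, and of the 8 only Id1 in heavy. DESeq2 and limma (pseudocount 1) also called 0 of the 8, and of all genes DESeq2 called 4, 2 and 1 and limma 1, 0 and 0 in input, medium and heavy. The largest difference was Id1 in heavy, at 6.25 and 9.15 CPM in KO and 4.34 and 3.58 in WT. It was 0.98 ± 0.27 (unadjusted p = 0.00304, adjusted p = 1.00), 0.50 without replicate 2 of both genotypes, and 0.67 to 1.22 leaving out 1 HHT lysate at a time. Id1 with vehicle stood at 7.32 (KO) and 7.38 (WT) CPM in heavy, and the genotype by treatment term there was 0.99 ± 0.47 (adjusted p = 1.00).

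The other differences between genotypes were smaller against their SE. Bmpr2 in medium was -0.45 ± 0.29 (adjusted p = 0.999), with KO libraries at 180 and 163 CPM below WT libraries at 236 and 233. Bmpr1a in input was -0.31 ± 0.21 (adjusted p = 0.890), and Nog was -0.29 ± 0.22 in medium and -0.26 ± 0.24 in heavy. Of the 8, 4 had KO and WT libraries that did not overlap in heavy (35.3% of all genes), 2 in medium (35.4%) and 1 in input (26.8%). For the genotype by treatment term edgeR called 0% of all genes in each fraction and 0 of the 8, with 214, 187 and 104 genes but 0 of the 8 at an unadjusted p under 0.05, and DESeq2 and limma also called 0. For the KO effect on fraction ratios 0% of genes were called in medium to input and heavy to medium, 0.00716% (1 gene) in heavy to input, and 0 of the 8. At an unadjusted p under 0.05 there were 259, 204 and 448 genes in the same order, and of the 8 only Id1 in heavy to input (0.87 ± 0.36, unadjusted p = 0.03, adjusted p = 1.00, edgeR). The median SE over the members' comparisons was 0.24, which limits what 2 replicates per genotype can show.

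The direction of the HHT difference was the same in both genotypes for the main values. Id3 in medium was -2.04 ± 0.22 in WT alone and -1.70 ± 0.29 in KO alone, Id2 -1.48 ± 0.23 and -1.10 ± 0.20, and Id1 -1.43 ± 0.24 and -0.85 ± 0.29. Bmpr1a in medium was 1.65 ± 0.21 and 0.89 ± 0.31, Bmpr2 in heavy 2.08 ± 0.23 and 2.01 ± 0.43, Nog in heavy 2.00 ± 0.41 and 1.02 ± 0.28, and Smad7 in heavy 1.14 ± 0.21 and 0.97 ± 0.20. The genotype by treatment terms for these were not past the threshold, with adjusted p = 0.999 or above.

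Across the 18 libraries, the Id genes differed in which mRNAs they resembled. These values describe the table and share the libraries, their fractions and treatments. Among 11119 genes with a mean of at least 5 CPM, Id2 was most like Atp6v1g1 (Pearson r = 0.990), Ndufa12 (0.988) and Ndufb3 (0.987), a subunit of the vacuolar proton pump and 2 of respiratory complex I. Id3 was most like Zmat2 (0.961), Grpel1 (0.956) and Ndufs3 (0.953), Id1 like Nicn1 (0.922), Ddah1 (0.892) and Mapre1 (0.890), and Id4 like Rhob (0.926), Rundc3b (0.922) and Smap2 (0.918). Man1a2 (0.98) and Lpgat1 (0.970) were among the 3 most like Bmpr2, and Bmpr1a was most like Manea (0.967), Pgrmc2 (0.965) and Casc4 (0.964). For Nog these were Tpra1 (0.959), Ust (0.955) and Tspan5 (0.947), and for Smad7 Cbfa2t3 (0.957), Zfp651 (0.953) and Klhl29 (0.952). No member was among another member's 3. Between members r was highest for Id2 with Id3 (0.836), Nog with Bmpr2 (0.752) and Id1 with Id2 (0.748), and it was -0.01 for Id3 with Id4.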

How the data were processed

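The labels put the 18 libraries in 12 groups (genotype, treatment, fraction). The deposited table of expected counts (estimated counts per gene) holds 13973 genes, and a second deposited table, a score that the authors call TPM, is called rescaled TPM because 10 of its 18 columns sum to more than TPM can. In the table of expected counts, 0 of the 251514 values are whole numbers. Whether they were adjusted before deposit was not tested, and any such adjustment would carry into the SE and p-values. Per the submitters' processing notes the genome build was mm10, and the tools they list, with no roles, are RSEM 1.2.11, Bowtie2 2.1.0, DESeq2 1.16.1 and Trimmomatic 0.32. Per the labels' protocols, tissue was homogenised without detergent and cleared at 2000 g and 10000 g before 1% NP-40, gradients were 15 to 45% sucrose, fractions were pooled by FMRP immunoblot, and 200 ng of RNA went into each library, prepared with a directional kit.

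Counts, rounded to whole numbers, went into edgeR 4.0.16 (R 4.3.3) with TMM factors and its quasi-likelihood test, using 12 group means for the 18 libraries (residual degrees of freedom 6, prior degrees of freedom 7.36). Spread comes from the 6 HHT groups of 2 libraries, and vehicle groups, each a lone library, are taken to vary as much. No gene of the 13973 was lost to the low-count filter. Benjamini-Hochberg adjustment covered all genes of each comparison, at 0.05, with 2-sided tests. CPM use TMM-scaled library sizes. The method was run on simulated data with known changes, placed only in HHT against vehicle in medium and in a small part of the genes. No change between genotypes was simulated, so that run does not bear on the genotype counts.

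The members and lists were chosen with earlier results of these data known. Genes named besides the members are listed pathway genes past the threshold, at most 6 per list and direction by adjusted p, with every Smad and E protein. Likeness is the Pearson correlation of log2 CPM (prior count 2). Coding sequences came from GENCODE M21, matched by symbol for 13050 genes. Alternatives were RLE factors, library totals, no filter, DESeq2 1.42.0, limma 3.58.1 on log2(rescaled TPM + 1 or + 0.1), each HHT lysate, HHT replicate 2 or (chosen after seeing the data) HHT replicate 1 left out, each genotype alone, fewer libraries in the fit, and blocks for replicate number or lysate. The sequence of Smad7 and the values of 2 genes that these rules name are not reported here.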

Additional observations from a re-analysis of the deposited data

How the results depend on the processing

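Among the 8 genes, the HHT differences in medium of Id1, Id2, Id3, Smad7, Nog, Bmpr1a and Bmpr2 and those in heavy of Nog, Smad7, Bmpr1a and Bmpr2 kept their sign under all 15 alternatives run. The alternative with no filter repeats the main fit, since the filter removed no gene, and so adds nothing to that count. The HHT differences of these genes differed in size between alternatives. These differences ranged from -2.04 to -1.70 for Id3, -1.48 to -1.10 for Id2 and -1.43 to -0.85 for Id1 in medium, and from 1.94 to 2.28 for Bmpr2 in heavy. The count of members called between genotypes was 0 under every alternative. Scaling by library totals moved the median of all genes to -0.11 in input and 0.10 in heavy, and the share of calls that were higher in input from 98.3% to 85.8%. The vehicle groups hold 1 library each, so the spread between vehicle lysates is unknown, and no label ties them to an HHT replicate.

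For the other 58 genes of the pathway, the 13 higher in input were 4 and 2 by limma (pseudocounts 1 and 0.1), 7 in WT alone, 0 in KO alone, 8 from the 6 input libraries alone, 22 with HHT replicate 1 alone and 4 with HHT replicate 2 alone, an alternative chosen after seeing the data. Leaving out 1 lysate at a time gave 6 to 15. The 0 lower in input became 1 with library totals and 1 with HHT replicate 1 alone. The 24 higher in medium were 10 in KO alone. The 7 lower in medium were 3 by DESeq2, 3 and 3 by limma, 3 in WT alone, 2 in KO alone and 3 with HHT replicate 2 alone, and 3 to 5 leaving out 1 lysate. In heavy, limma called 37 and 37 higher in place of 24 and 1 and 1 lower in place of 3, and WT alone called 1 lower. Tcf12 in medium changed sign, from -0.05 to 0.062 and 0.065 by limma with pseudocounts of 1 and 0.1. The cause of these changes was not tested, except that single-genotype and left-out fits hold fewer libraries.

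The labels do not tie same-numbered WT and KO lysates to each other, and the deviations of same-numbered HHT libraries correlated at 0.323, 0.165 and 0.00332 in input, medium and heavy. A replicate block for the number, or for the lysate that fractions share, left 0 members called. The lysate pairing follows from the protocol, and fractions of a lysate correlated at 0.0142 to 0.349.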
